A study of Saccharomyces cerevisiae with 64 samples.

Results

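The peak lists of myc-tagged Spp1 in the competition experiment came from 10 of the 62 ChIP-seq libraries with a peak list, sampled at 4.5, 5, 5.5, 6 and 6.5 h after the shift to sporulation medium with 2 libraries per time. They held 614 of the 53443 peaks that the series has on the 16 nuclear chromosomes. The 4 libraries of 6 and 6.5 h (199 nuclear peaks, called late below) were set against the 4 libraries of 4.5 and 5 h (288 nuclear peaks, called early), and the 2 libraries of 5.5 h (127 nuclear peaks) are shown beside them. Libraries were chosen by their sample labels alone, and peaks on a sequence named chrXVII were kept apart. All 10 came from an SK1 diploid, a background that sporulates efficiently, and all carry the genotype label SPP1-13xmyc-KanMX4/SPP1-13xmyc-KanMX4 with leu2/LEU2, HIS4/his4, trp1/trp1 and ura3/ura3. The matching anti-GFP libraries, 8 in all, are labelled as carrying one SPP1-13xmyc-KanMX4 allele and one NatMX4-pCUP1-1-yGFP-SPP1 allele, the GFP copy being under the copper-responsive CUP1 promoter, in the same auxotrophic background. By its label, then, the strain behind the myc lists holds no GFP copy, and whether these cultures contained the competitor cannot be told from the lists. When copper was added is not given in the sources used here.

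Spp1 is a subunit of Set1C, the complex that methylates lysine 4 of histone H3. It reads that mark with its PHD finger, and in meiosis it also binds Mer2 on the chromosome axis, which brings it to sites where recombination starts. In a competition ChIP experiment a second, differently tagged copy of a protein is induced, and the resident copy is mapped over time to see which sites exchange it and which keep it.

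A peak list gives where the caller found enrichment and a score between 0.5 and 1, as the caller gave it. It holds no read counts, so the depth is unknown, and a library without a peak at a gene is not shown to lack the protein there. The score is used here only as a percentile within the nuclear peaks of its own list. A gene was counted as occupied when a peak had its midpoint inside the coding region, or up to 500 bp before its start. Coordinates are those of sacCer3, and genes were taken from the R64 annotation. Separate cultures are not stated in the labels, so a p-value reflects the spread between libraries, which may be technical. With 4 libraries against 4, the smallest p of the two-sided exact permutation test over all 70 arrangements is 0.0286.

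Nuclear peaks were few at every time. The 6 h libraries had 74 and 43 and the 6.5 h libraries 40 and 42, against 78 and 51 at 4.5 h and 110 and 49 at 5 h. The 5.5 h libraries had 66 and 61. The ranges of the late and early libraries overlapped, with a mean of 49.8 ± 16.2 peaks at 6 and 6.5 h and of 72 ± 28.6 at 4.5 and 5 h (SD, n = 4 each). The difference was -0.50 on the log2 scale (two-sided exact permutation test, p = 0.171). Peaks covered 7.75 ± 2.67 kb in the late and 13.5 ± 6.17 kb in the early libraries (SD, n = 4 each, two-sided exact permutation test, p = 0.171). The Spp1-myc time course of the same series, 1 library in pre-sporulation medium and at each of 0, 2, 4 and 6 h, had 1106 to 2075 nuclear peaks per list, and the Spp1-GFP lists had 62 to 670.

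Peaks were found on 2 to 15 of the 16 nuclear chromosomes per library, and chromosomes I and XII held a large share of them. Chromosome I, the shortest chromosome at 1.88% of the annotated sequence, held 40.2% ± 16.6 of the nuclear peaks of the 10 libraries (SD, n = 10), against 2.01% ± 0.391 in the 5 lists of the Spp1-myc time course (SD, n = 5). That difference, 38.2 percentage points, gave p = 0.000666 in a two-sided exact permutation test (adjusted p = 0.00414 over 8 such tests). Against the 8 Spp1-GFP lists, at 15.7% ± 10.3 (SD, n = 8), the difference was 24.5 percentage points (two-sided exact permutation test, p = 0.00274, adjusted p = 0.00548). Chromosome XII held 24.2% ± 13.4 of the peaks of the 10 libraries, against 7.35% ± 0.791 in the Spp1-myc time course (two-sided exact permutation test, p = 0.0147, adjusted p = 0.0195) and 20.1% ± 11.7 in the Spp1-GFP lists (p = 0.495 by the same permutation test). List length moves with this measure, since the time-course lists are many times longer, and its part was not tested.

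**Figure D1:**
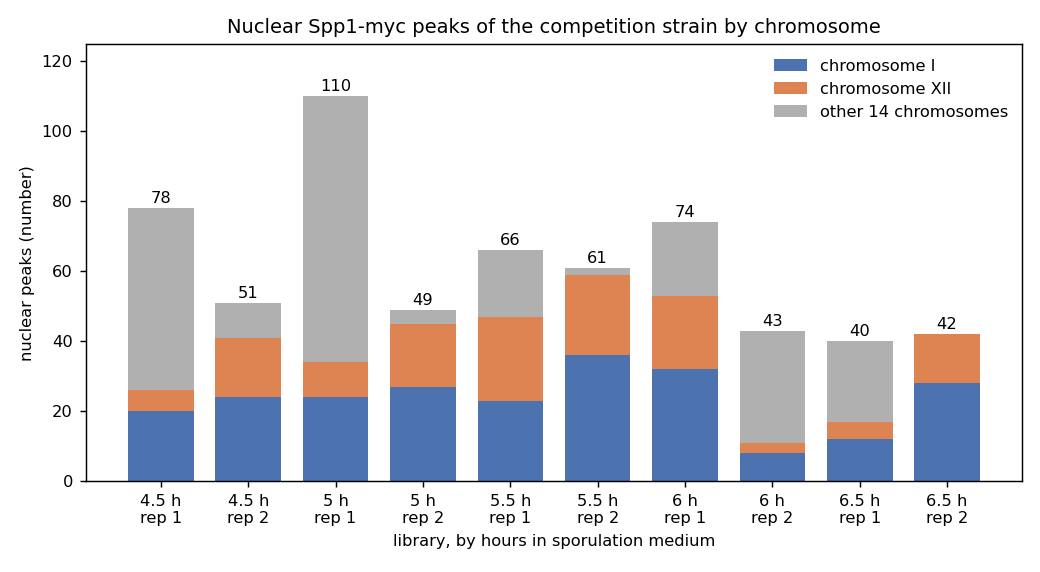
Nuclear peaks per library (bars, number of peaks) for the 10 libraries in order of hours in sporulation medium, split into chromosome I, chromosome XII and the other 14 chromosomes. The library of 6.5 h replicate 2 has all of its 42 peaks on chromosomes I and XII, while 5 h replicate 1 has 76 of its 110 peaks elsewhere.

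In the share on chromosome I, late and early libraries overlapped. It was 43.2% and 18.6% at 6 h and 30.0% and 66.7% at 6.5 h, against 25.6% and 47.1% at 4.5 h and 21.8% and 55.1% at 5 h. The late minus early difference was 2.22 percentage points (two-sided exact permutation test, p = 0.857), and 17.5 without the 2 late libraries described next (p = 0.267 by the same permutation test). The library of 6 h replicate 1 also had 19 peaks on chromosome VIII, where no other of the 10 libraries had more than 4. The library of 6.5 h replicate 2 had peaks on 2 chromosomes in all, and 5.5 h replicate 2 on 4.

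2 of the late libraries stood apart from the rest. Overlap of a pair was the share of the shorter list, in percent of its peaks, that touched a peak of the longer one by 1 bp or more. The lists of 6 h replicate 2 and 6.5 h replicate 1 overlapped each other by 60%. Each overlapped the 8 remaining lists by 6.98% to 27.9% (median 15.6% over 16 pairs), against 16.7% to 57.7% among those 8 lists (median 37.7% over 28 pairs). These 2 libraries had 30.2% and 35.0% of their nuclear peaks within 20 kb of a chromosome end, against 4.76% to 14.3% in the other 8. Their shared peaks that no other library had lay in 16 regions, among them places in MNN4, a mannosylphosphorylation gene of the cell wall, and NOP58, which encodes a core protein of the box C/D snoRNPs. The main comparisons below are therefore also given without them where that ends a call, turns a direction or moves a count by more than 1.5 times, a choice made after the data were seen. With 2 late libraries against 4, the smallest p of the permutation test is 0.0667, so every call under 0.05 ends by design. The 2 omitted libraries had peaks on 14 and 12 chromosomes, and the other late ones on 5 and 2. Early replicate 1 lists, which overlapped each other by 57.7%, had them on 15 chromosomes each, and early replicate 2 lists on 8 and 5. The omission thus leaves both kinds of list on the early side only, and a change it brings cannot be told apart from that imbalance.

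**Figure D2:**
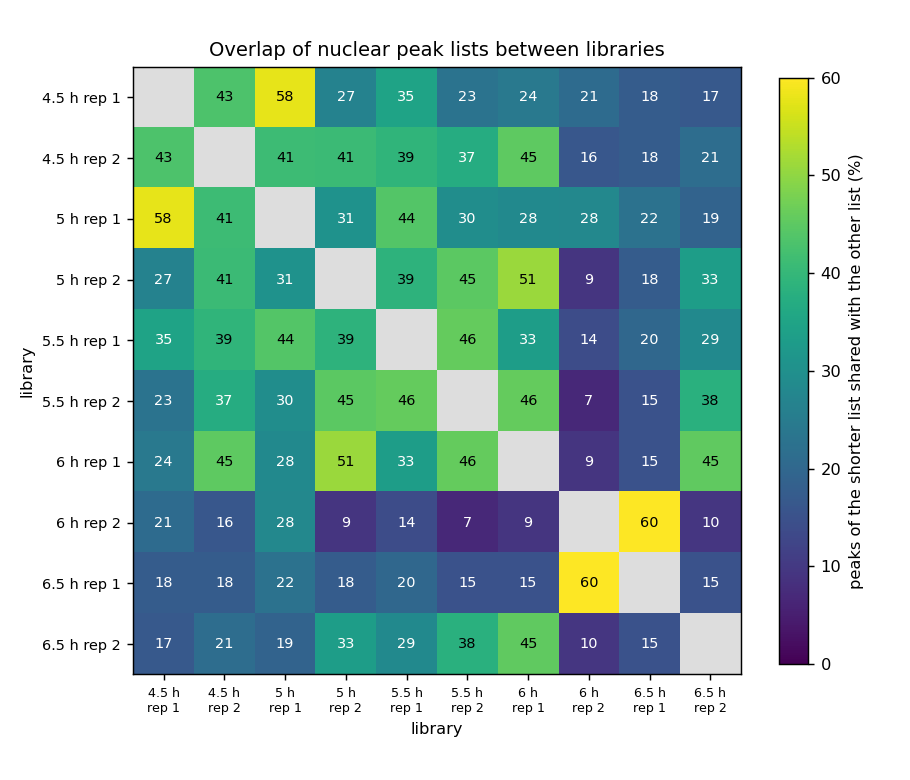
Overlap of nuclear peak lists for each pair of the 10 libraries, as the percent of the shorter list shared with the other list (colour and printed value, in %, rounded). The row and column of 6 h replicate 2 and of 6.5 h replicate 1 are dark except where they meet, at 60%.

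Lists of late and early libraries shared 24.3% of the shorter list on average (16 pairs), and lists within a set shared 32.8% (12 pairs). The difference was -8.54 percentage points (two-sided exact permutation test of library labels, p = 0.0571). Within the late set the 6 pairs ranged from 9.30% to 60%, and within the early set from 26.5% to 57.7%. The 2 libraries of one time shared 9.30% at 6 h and 15.0% at 6.5 h, against 43.1% at 4.5 h and 30.6% at 5 h.

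The first question was which genes kept a Spp1-myc peak to 6 and 6.5 h. Of 6002 coding genes, 245 were occupied in at least 1 of the 10 libraries, and 132 of them in exactly 1. In the late libraries 112 genes were occupied at least once (1.87% of coding genes) and in the early ones 166 (2.77%), and over all 10 libraries the share was 4.08%. The 50 genes found in both sets are 44.6% of the late and 30.1% of the early genes. Over the 228 genes occupied in at least 1 of these 8 libraries, a two-sided Fisher's exact test, adjusted by Benjamini and Hochberg's method, called 0 genes (0% of those tested), and with 4 libraries a side its smallest p of 0.0286 had an adjusted value of 1 here. At an unadjusted p under 0.05, 1 gene was lower at 6 and 6.5 h (0.439%) and 0 were higher (0%). Of the 228 genes, 134 were occupied in fewer late than early libraries, 66 in more and 28 in equal numbers, with a median of -1 library late minus early. No gene was occupied in 8 of the 8.

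Genes occupied in 3 or 4 of the 4 libraries of both sets are called kept. There were 4 of them among 228 (1.75%), NTG1, SYN8, DEP1 and FLO1, and all lie on chromosome I, where 51 of the 94 coding genes were occupied in at least 1 of the 10 libraries. NTG1 and SYN8 rest on 1 region, chrI:128267-128622. Its peak midpoints lie 71.2% to 84.9% of the way along SYN8 (chrI:128252-129019, minus strand) and before the start of NTG1 (chrI:126903-128102, minus strand). SYN8 encodes an endosomal SNARE and NTG1 a DNA glycosylase of base excision repair. The region held a peak in 9 of the 10 libraries, the missing one being 6 h replicate 2. Its score percentile was 85.1 in 6 h replicate 1, 2.50 in 6.5 h replicate 1 and 57.1 in 6.5 h replicate 2, against 79.5 and 84.3 at 4.5 h and 77.3 and 63.3 at 5 h. The peak was thus kept in 3 late libraries and stood low in the list of one of them. Peaks were also found there in 6 of the 8 Spp1-GFP lists and in 5 of the 5 lists of the Spp1-myc time course.

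DEP1 (chrI:129270-130487, plus strand), which encodes a subunit of the Rpd3L histone deacetylase complex, held a peak in 8 of 10 libraries. The score percentile was 89.2 in 6 h replicate 1, 25.0 in 6.5 h replicate 1 and 100 in 6.5 h replicate 2, with no peak in 6 h replicate 2. Among the early libraries it was 80.4 in 4.5 h replicate 2, 80.0 in 5 h replicate 1 and 42.9 in 5 h replicate 2, with no peak in 4.5 h replicate 1. In all 8 libraries a peak lay near the end of the DEP1 coding region, its midpoint between 82.3% and 94.3% of the way along. In 5.5 h replicate 1 a second peak lay at 43.9%. The same region, chrI:130122-130518, reaches into the 500 bp upstream of CYS3, a cysteine synthesis gene whose promoter is a known meiotic recombination hotspot. By the midpoint rule CYS3 was occupied in 2 of 4 late and 2 of 4 early libraries and in both at 5.5 h. Spp1-GFP had a peak in this region in 5 of 8 lists and the Spp1-myc time course in 0 of 5. As a gene, by the midpoint rule, DEP1 was occupied in 7 of the 8 Spp1-GFP lists and in 3 of the 5 time-course lists.

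FLO1 (chrI:203403-208016, plus strand), the flocculin gene of cell adhesion, was occupied in 3 of 4 late, 3 of 4 early and 0 of 2 libraries at 5.5 h. It held no peak in any Spp1-GFP list or in the Spp1-myc time course. Its peaks fell in the same 2 narrow places, at 69.1% and 95.7% of the coding length in 4.5 h replicate 1 and at 69.1% in 6 h replicate 2. FLO1 contains internal repeats and has close paralogs, and how reads from repeated sequence were placed is not given in the sources used here, so its peaks are uncertain. The count of kept genes depended on the 2 libraries that stand apart. Without them, 9 genes were occupied in both remaining late libraries and in 3 or 4 early ones, namely CYC3, DEP1, NTG1, SOF1, SYN8, TFC3, VPS8, YAT1 and YEH1, of which 3 are among the 4 named above. With chromosome I left out, 0 genes were kept.

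Genes occupied in no late library and in 3 or 4 early ones are called lost. There were 3 among 228 (1.32%). ACS1 (chrI:42881-45022, minus strand), which encodes the acetyl-CoA synthetase used for growth on acetate, was the single gene lower at 6 and 6.5 h at an unadjusted p. It held a peak in 0 of 4 late and 4 of 4 early libraries and in 2 of 2 at 5.5 h (Fisher's exact test, two-sided, p = 0.0286, adjusted p = 1). Its highest-scoring peak stood at the 98.7 and 98.0 percentile at 4.5 h and at 99.5 and 100 at 5 h, which put it at or next to the top of each early list. At 5.5 h the percentile was 86.4 in replicate 1 and 16.4 in replicate 2. The highest-scoring peaks at 4.5 and 5 h were wide, up to 901 bp in 5 h replicate 1, and covered chrI:44072-44972 in the first part of the gene. That region held a peak in 5.5 h replicate 1 and none in 5.5 h replicate 2, whose peak lay at chrI:43753-43853, 56.9% along the gene. ACS1 held a peak in 8 of 8 Spp1-GFP lists and in 5 of 5 lists of the Spp1-myc time course, the one at 6 h included.

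SWC3, which encodes a subunit of the SWR1 complex that deposits the histone variant H2A.Z, held peaks in 0 of 4 late and 3 of 4 early libraries, and in 2 of 2 at 5.5 h. These peaks were weak, with early percentiles of 5.13, 20.9 and 18.4. Those of 4.5 h replicate 1 and 5 h replicate 2 lay in 1 region, chrI:133793-133967, and those of 5 h replicate 1 elsewhere in the gene. CAR1 (chrXVI:339944-340945, plus strand), the arginase gene, held peaks in 0 of 4 late and 3 of 4 early libraries and in 0 of 2 at 5.5 h. Its peaks were high in the lists of 4.5 h replicate 1 (percentile 94.9) and 5 h replicate 1 (92.7) and low in 4.5 h replicate 2 (29.4). CAR1 is on chromosome XVI, where the late libraries had 1 peak in all, in 6 h replicate 2. 1 gene (0.439%) was gained, with 3 late libraries, 0 early ones and 1 at 5.5 h. This was GIP4 (chrI:84749-87031, minus strand), whose product binds the Glc7 phosphatase, with late percentiles of 74.3, 7.50 and 50.0 at one place, with midpoints 64.1% to 68.3% along the gene. Without the 2 libraries that stand apart, 5 genes were lost, with ADY2 and YEL077C in addition, and 4 were gained, with BUD14, FRT2 and OSW2 in addition.

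How many genes fell in these classes moved with single libraries. Leaving out 4.5 h replicate 2 gave 31 lost genes and leaving out 5 h replicate 2 gave 26, against 3 with all libraries. Leaving out 4.5 h replicate 1 gave 8, 5 h replicate 1 gave 7 and 6 h replicate 1 gave 9. For gained genes, leaving out 6 h replicate 1 or 6.5 h replicate 2 gave 11, and leaving out 6 h replicate 2 or 6.5 h replicate 1 gave 4, against 1, and leaving out 5 h replicate 1 gave 2. For kept genes, leaving out 6 h replicate 2 or 6.5 h replicate 1 gave 10, against 4. With 3 libraries on a side the rule asks for 2 or 3 of them, so it is easier to meet. NTG1, SYN8, DEP1 and FLO1 stayed kept, ACS1, SWC3 and CAR1 lost and GIP4 gained in each of the 8 sets. That was fixed by the rule, since a gene in 3 or 4 of 4 libraries is in 2 or 3 of any 3. It says nothing about stability.

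**Figure D3:**
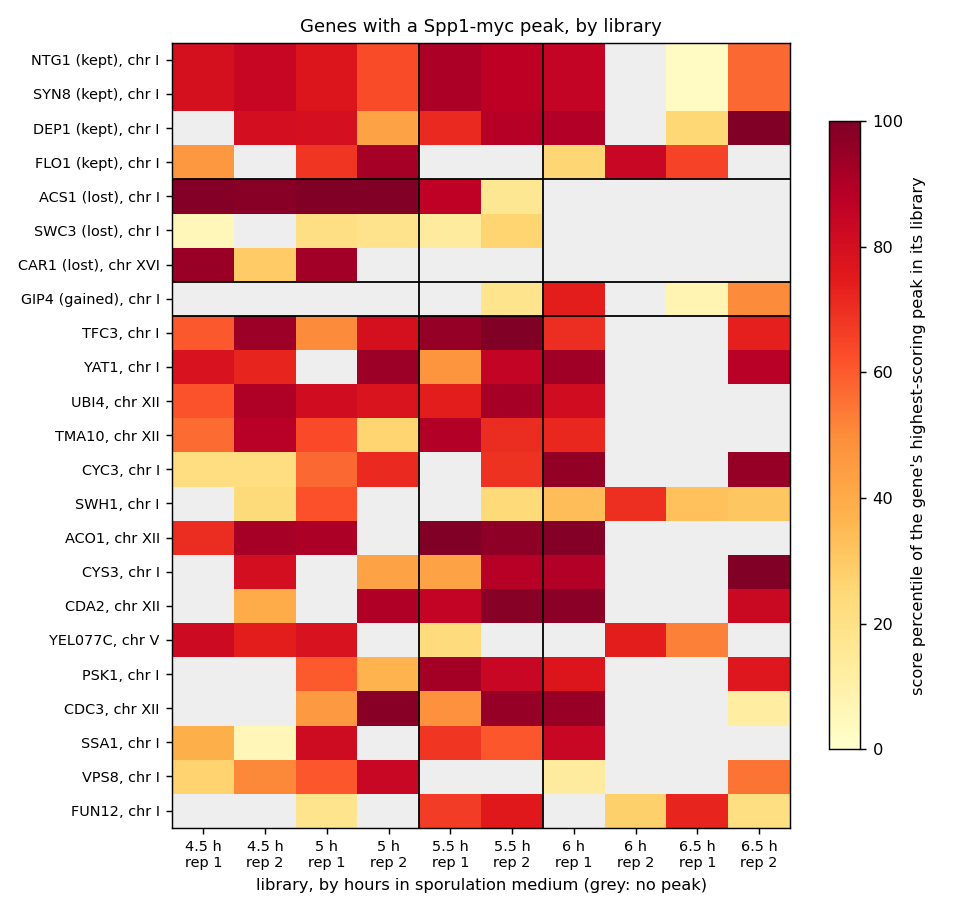
Genes kept, lost or gained and other genes occupied in 6 or more of the 10 libraries (rows, with their chromosome) by library (columns, in order of hours). Colour gives the score percentile of the gene's highest-scoring peak within the nuclear peaks of that library, and grey means no peak. ACS1 is grey in the 4 late columns and dark in the 4 early ones, and TFC3, YAT1 and CYC3 are filled in 6 h replicate 1 and 6.5 h replicate 2 and grey in the other 2 late columns.

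Other genes recurred without meeting the rule for kept genes, and they are named here after their values were seen. TFC3, which encodes a subunit of the RNA polymerase III factor TFIIIC, held peaks in 2 of 4 late, 4 of 4 early and 2 of 2 libraries at 5.5 h. The late ones were 6 h replicate 1 and 6.5 h replicate 2, at percentiles of 70.3 and 73.8, against 60.3 and 94.1 at 4.5 h and 50.0 and 79.6 at 5 h. Its recurrent region, chrI:147817-148553, lies near the end of the coding region. It was in 6 of 8 Spp1-GFP lists and in 0 of 5 lists of the time course. YAT1, the outer mitochondrial carnitine acetyltransferase gene, was occupied in 2 of 4 late and 3 of 4 early libraries and in both at 5.5 h, with percentiles of 93.2 and 88.1 late. CYC3, the gene of the lyase that attaches haem to cytochrome c, was occupied in the same 2 late libraries and in 4 of 4 early ones.

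On chromosome XII, UBI4 and TMA10 each held a peak in 1 of 4 late libraries, 6 h replicate 1, against 4 of 4 early ones, and in 2 of 2 at 5.5 h (Fisher's exact test, two-sided, p = 0.143 for each, adjusted p = 1). UBI4 encodes polyubiquitin, needed under stress and for sporulation, and consists of repeated ubiquitin units, so read placement within it is uncertain. Its percentile in 6 h replicate 1 was 81.1, against 61.5 and 90.2 at 4.5 h and 80.9 and 77.6 at 5 h. SWH1, an oxysterol-binding protein gene, was the only gene occupied in 4 of 4 late libraries. It was occupied in 2 of 4 early ones (p = 0.429 by the same Fisher's exact test, adjusted p = 1), and its peaks were spread over several places between its upstream region and the middle of the gene.

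Merging overlapping peaks of the 10 lists gave 319 regions, 190 of them in 1 library. Both ends of chromosome I were covered in 10 of 10 libraries, at chrI:1-172 and chrI:228093-228272. The left one lies 1634 bp from PAU8 and the right one 1229 bp beyond PHO11, and neither is in a gene by the rule used here. The left end was also a peak in 8 of 8 Spp1-GFP lists and 2 of 5 lists of the Spp1-myc time course, and the right end in 4 of 8 and 0 of 5. Chromosome ends are repeated sequence, so these peaks cannot be assigned to chromosome I with certainty. Outside chromosomes I and XII, 1 region was in 7 or more libraries. This was chrIV:721100-721450 in the pseudogene CCW22, between MRX16 and YCF1, with 2 of 4 late, 4 of 4 early and 2 of 2 libraries at 5.5 h. CCW22 resembles the cell wall gene CCW12, and the region was also a peak in all 8 Spp1-GFP lists and all 5 of the time course.

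Of the 23 regions in 5 or more of the 10 libraries, 91.3% overlapped a peak of a Spp1-GFP list, 65.2% the Spp1-myc time-course list of 4 h and 56.5% that of 6 h. Of the 190 regions in 1 library, the shares were 34.2%, 26.3% and 22.1%. Over all 319 regions they were 46.4%, 35.1% and 29.5%. Of the 319 regions, 4 were kept, 3 lost and 2 gained under the same counts as for genes. The 4 kept ones were the 2 ends of chromosome I and those at SYN8 and DEP1. The 3 lost ones lay at ACS1, CAR1 and SPO24, a sporulation gene, and each was also a peak in the time-course lists of 4 and 6 h. The 2 gained ones lay at GIP4, in none of the time-course lists, and at FUN12, which encodes the initiation factor eIF5B and was a peak in 4 of the 5 time-course lists, those of 4 and 6 h included, and in 1 of the 8 Spp1-GFP lists.

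The gene groups of the shift to acetate come next. In these cultures acetate is the carbon source, and genes for using acetate, for the TCA cycle and for respiration are known to be strongly transcribed under such conditions. Of 25 genes for using acetate (with the glyoxylate cycle and gluconeogenesis), 3 were occupied in at least 1 late library and 7 in at least 1 early one. Over all coding genes the shares were 1.87% late and 2.77% early. All 7 acetate genes were occupied in fewer late than early libraries, with a median of -2 libraries, against -1 over all 228 genes tested. Besides ACS1 and YAT1 they were ACO1, the aconitase gene (1 of 4 late, 3 of 4 early), and ADY2, which encodes an acetate transporter (1 of 4 late, 3 of 4 early). CIT2, the peroxisomal citrate synthase gene, and MDH2, the cytosolic malate dehydrogenase gene, each had 0 of 4 late and 2 of 4 early, and SIP4, an activator of gluconeogenic genes, 0 of 4 late and 1 of 4 early. Of these 7, only ACS1 had an unadjusted p under 0.05, and 0 had an adjusted one. In the Spp1-myc time course 21 of the 25 were occupied at 4 h and 20 at 6 h, beside 18.2% and 16.6% of all coding genes.

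Of 19 TCA cycle genes, 0 were occupied in a late library and 5 in an early one, beside 1.87% and 2.77% of all coding genes. IDH2 and IDH1, the subunits of isocitrate dehydrogenase, had 2 of 4 early libraries each, and CIT1, LPD1 and SDH2 had 1 each. Of 34 respiratory chain and ATP synthase genes, 0 were occupied late and 3 early, with QCR6 in 2 of 4 early libraries and COR1 and ATP1 in 1 each. In the time course 15 of the 19 TCA cycle genes and 28 of the 34 respiratory genes were occupied at 4 h, and 13 and 24 at 6 h. Of all coding genes, 18.2% were occupied in that 4 h list and 16.6% in that of 6 h. The early peaks of these genes came from 4.5 h replicate 1 and 5 h replicate 1, the longest early lists, except that of SDH2, which came from 4.5 h replicate 2. Of these 8 genes SDH2 alone lies on chromosome I or XII. Outside those chromosomes the late libraries had 76 of 199 peaks and the early ones 142 of 288, and the part of that difference in the gene counts was not tested.

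For the next 2 groups, too, 1.87% of all coding genes were occupied late and 2.77% early. Of 33 heat shock and stress genes, 2 were occupied in a late library and 5 in an early one, with a median of -2 libraries, against -1 over all 228 genes tested. UBI4 is described above. SSA1, a cytosolic Hsp70 gene on chromosome I, had 1 of 4 late and 3 of 4 early libraries and 2 of 2 at 5.5 h, and it has a close paralog, SSA2. SOD1, the copper-zinc superoxide dismutase gene, had 0 of 4 late and 2 of 4 early. Of 24 nitrogen scavenging genes, 1 was occupied late and 3 early. GDH3, a glutamate dehydrogenase gene, was the late one, in 1 of 4 late and 0 of 4 early libraries and in 2 of 2 at 5.5 h.

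Genes of the meiotic programme were read against the 1.87% of coding genes occupied late, 2.77% occupied early and 4.08% occupied in any of the 10 libraries. Of 10 meiotic entry regulators, 1 was occupied late and 2 early. RIM4, an RNA-binding repressor of translation in meiosis, had 1 of 4 late and 3 of 4 early libraries and 1 of 2 at 5.5 h, and RIM15, a protein kinase of meiotic entry, 0 of 4 late and 1 of 4 early. Of 29 early meiotic chromosome and recombination genes, 0 were occupied late and 1 early, DMC1, the meiotic recombinase gene, in 1 library. None of the 6 axis genes (MER2, HOP1, RED1, REC8, REC114 and MEI4) held a peak in any of the 10 libraries. Of 35 middle and late sporulation genes, 3 were occupied late and 3 early, and 7 in any of the 10 libraries. CDA2, a chitin deacetylase gene of the spore wall on chromosome XII, had 2 of 4 late, 2 of 4 early and 2 of 2 libraries at 5.5 h. SPS4, a sporulation gene, had 1 of 4 late, 1 of 4 early and 2 of 2 at 5.5 h. OSW2, a spore wall gene, had 2 of 4 late, 0 of 4 early and 2 of 2 at 5.5 h. SMK1, a sporulation kinase gene, was in 1 early library, and ADY4, CLB4 and SPO19 were each in 1 library of 5.5 h and in no other. The 5.5 h libraries thus held 4 and 5 of the 35, beside 51 and 54 of all 6002 coding genes. The median over the 4 sporulation genes tested was 0 libraries late minus early.

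Among 12 genes at known recombination hotspots, 1 was occupied late (CYS3) and 2 early, beside 1.87% and 2.77% of all coding genes. ERG25, a sterol synthesis gene, had 0 of 4 late and 2 of 4 early libraries, and CCT6, a chaperonin gene, 1 library of 5.5 h. All 21 glycolytic genes, all 11 histone genes and all 43 genes of amino acid and one-carbon synthesis were without a peak in the 10 libraries. So were all 8 Set1C genes (SET1, BRE2, SPP1, SWD1, SWD2, SWD3, SDC1 and SHG1). Of all coding genes, 4.08% had a peak in these libraries. The time-course list of 4 h had a peak at 17 glycolytic, 10 histone, 26 amino acid and 0 Set1C genes. In that list 18.2% of all coding genes had one. Of 138 cytosolic ribosomal protein genes, 1 was occupied late and 2 early. RPL29 had 0 of 4 late and 2 of 4 early libraries, RPP1A 0 of 4 late and 1 of 4 early, and RPS4B 1 of 4 late and 0 of 4 early. Of 22 translation factor genes, 1 was occupied late and 2 early, of which EFB1, an elongation factor gene on chromosome I, had 1 of 4 in each set and CAM1 0 of 4 late and 1 of 4 early. Of 25 cell wall genes, 2 were occupied late (UTH1 in 2 libraries, both of them the ones that stand apart, and SIM1 in 1) and 1 early (TIR3, in 1). Of 21 iron and copper uptake genes, 0 were occupied late and 1 early, the cell wall mannoprotein gene FIT1, in 1 library.

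The second question was where the peaks sat within and between genes. Peaks up to 500 bp before a coding start were 10.8% and 11.6% at 6 h and 15.0% and 16.7% at 6.5 h, against 5.13% and 9.80% at 4.5 h and 10.0% and 12.2% at 5 h. The 5.5 h libraries had 6.06% and 16.4%. Means were 13.5% ± 2.77 late and 9.29% ± 2.99 early (SD, n = 4 each, two-sided exact permutation test, p = 0.0857, adjusted p = 0.377 over 11 position measures), and the groups overlapped. Single values rest on 4 to 11 peaks, so the Wilson 95% interval of one late library, 6.5 h replicate 2, ran from 8.32% to 30.6%.

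Coding regions of 1000 bp or more were divided into 5 equal parts from start to end. Of the peaks in them, the first part held 22.4% and 17.4% at 6 h and 15.8% and 23.3% at 6.5 h, against 32.7% and 18.2% at 4.5 h and 29.9% and 25.0% at 5 h. Means were 19.7% ± 3.71 late and 26.4% ± 6.34 early (SD, n = 4 each, two-sided exact permutation test, p = 0.114, adjusted p = 0.377), and their difference of -6.69 percentage points was -3.55 without the 2 libraries that stand apart. The last part held 30.9% ± 4.45 late and 35.3% ± 11.0 early (p = 0.486 by the same permutation test, adjusted p = 0.763). In all 10 libraries the last part held more peaks than an even spread would give, at 23.4% to 45.5%, while the first part held 15.8% to 32.7%.

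Peaks between divergently transcribed genes were found in all 4 late libraries, at 1.35% and 9.30% at 6 h and 7.50% and 7.14% at 6.5 h, and in none of the 4 early ones. The late libraries had 11 such peaks of 199, and the early ones 0 of 288. The 5.5 h libraries had 4 of 127, at 3.03% and 3.28%. Early lists are short, so 0 peaks leave room for a share above 0. The upper Wilson limit was 3.37% in 5 h replicate 1, the lowest of the early libraries, and 7.27% in 5 h replicate 2, the highest. Late shares of 1.35% and 7.14% lie below that highest limit. The late mean was 6.32% ± 3.45 and the early mean 0 (SD, n = 4 each), with p = 0.0286 in the two-sided exact permutation test, the smallest it can give, and an adjusted p of 0.314 over 11 position measures. Without the 2 libraries that stand apart the difference was 4.25 percentage points (two-sided exact permutation test, p = 0.0667, the smallest possible with 2 against 4). The remaining late libraries, at 1.35% and 7.14%, were still above every early one. With chromosome I left out the difference was 5.71 (p = 0.143 by the same permutation test). At equal list sizes it was 5.63 and among peaks above the median score of their list 7.20 (permutation p = 0.143 each), and leaving out any 1 early library gave a permutation p of 0.0571.

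These intervals recurred among a few gene pairs. The one between CYC3 and CDC19, the pyruvate kinase gene, held peaks in 6 h replicate 1 and 6.5 h replicate 2 and in 5.5 h replicate 2, near chrI:70068-70318, more than 500 bp from either start. The one between DFP1 and UIP3 held peaks in 6 h replicate 2, 6.5 h replicate 2 and 5.5 h replicate 1. The one between YFL064C and COS4, close to the left end of chromosome VI, held 4 of the 11 late peaks, all in the 2 libraries that stand apart. Tandem intervals held 6.45% ± 2.68 of peaks late and 4.13% ± 1.31 early (SD, n = 4 each, two-sided exact permutation test, p = 0.171, adjusted p = 0.377), and their difference of 2.31 percentage points was 0.274 without the 2 libraries that stand apart. Convergent intervals held 2.99% ± 3.55 late and 2.27% ± 1.15 early (p = 0.8 by the same permutation test).

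**Figure D4:**
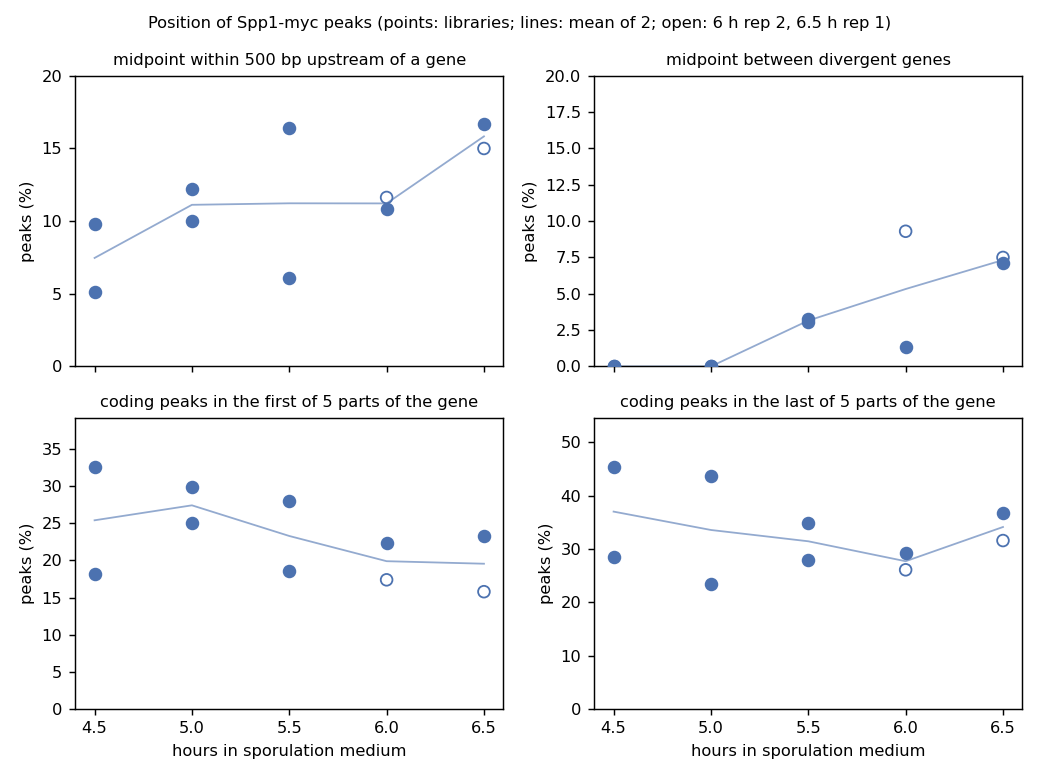
Share of peaks (%) by hours in sporulation medium for 4 positions: within 500 bp upstream of a gene, between divergent genes, and, among coding peaks of genes of 1000 bp or more, in the first and the last of 5 equal parts. Points are libraries, lines join the means of 2, and open points are 6 h replicate 2 and 6.5 h replicate 1. Divergent intervals are above 0 in all 4 libraries of 6 and 6.5 h and at 0 in all 4 of 4.5 and 5 h.

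In the remaining position measures the late and early libraries overlapped. Peaks within 500 bp of a tRNA gene made up 1.51% ± 1.11 late and 2.23% ± 2.13 early (SD, n = 4 each, two-sided exact permutation test, p = 0.629). Peaks within 20 kb of a chromosome end made up 6.76%, 30.2%, 35.0% and 4.76% in the 4 late libraries, against 6.41%, 9.80%, 6.36% and 14.3% in the 4 early ones (two-sided exact permutation test, p = 0.371). The difference of 9.97 percentage points turned to -3.46 without the 2 libraries that stand apart. The short chromosomes I, III and VI together held 46.2% ± 14.1 of peaks late and 44.5% ± 11.9 early (SD, n = 4 each, two-sided exact permutation test, p = 0.857). The median peak width was 101 or 151 bp in every library.

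The third question was whether the peaks were at sites that other Spp1 lists hold. At 6 h 55.4% and 30.2% and at 6.5 h 32.5% and 42.9% of nuclear peaks shared at least 1 bp with a peak of any Spp1-GFP list, against 70.5% and 74.5% at 4.5 h and 60% and 69.4% at 5 h. The late and early libraries did not overlap, and the 5.5 h libraries, at 63.6% and 67.2%, lay within the early range. Means were 40.2% ± 11.5 late and 68.6% ± 6.14 early (SD, n = 4 each, two-sided exact permutation test, p = 0.0286, adjusted p = 0.143 over 5 measures added after the data were seen). Without the 2 libraries that stand apart the permutation p was 0.0667, the smallest possible with 2 against 4 (difference -19.5 percentage points). The remaining late libraries, at 55.4% and 42.9%, were still below every early one. The permutation p was 0.0571 with 5.5 h counted as late (-20.0) and 0.0571 without any 1 early library. Of the 8 Spp1-GFP lists, 6 are from 4.5 to 5.5 h, and they hold most of the Spp1-GFP peaks, with 670 in the longest and 62 in that of 6.5 h.

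Sharing with the Spp1-myc time course was also lower on average in the late libraries. With its 4 h list, the late libraries shared 27.0%, 32.6%, 30.0% and 14.3% of their peaks and the early ones 69.2%, 52.9%, 52.7% and 28.6%, with means of 26.0% ± 8.11 and 50.9% ± 16.8 (SD, n = 4 each, two-sided exact permutation test, p = 0.0857). With its 6 h list, the late libraries shared 21.6%, 25.6%, 20.0% and 7.14% and the early ones 65.4%, 49.0%, 47.3% and 24.5%, with means of 18.6% ± 7.98 and 46.5% ± 16.8 (p = 0.0571 by the same permutation test). In both measures the ranges overlapped through 5 h replicate 2, and without that library both gave p = 0.0286 by permutation. With chromosome I left out, the difference for the 6 h list was -35.5 percentage points (permutation p = 0.0286). Each time-course list is 1 library. List length differed between the sets, and at equal list sizes the late minus early difference was -35.6 percentage points for Spp1-GFP and -34.4 for the 4 h list.

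**Figure D5:**
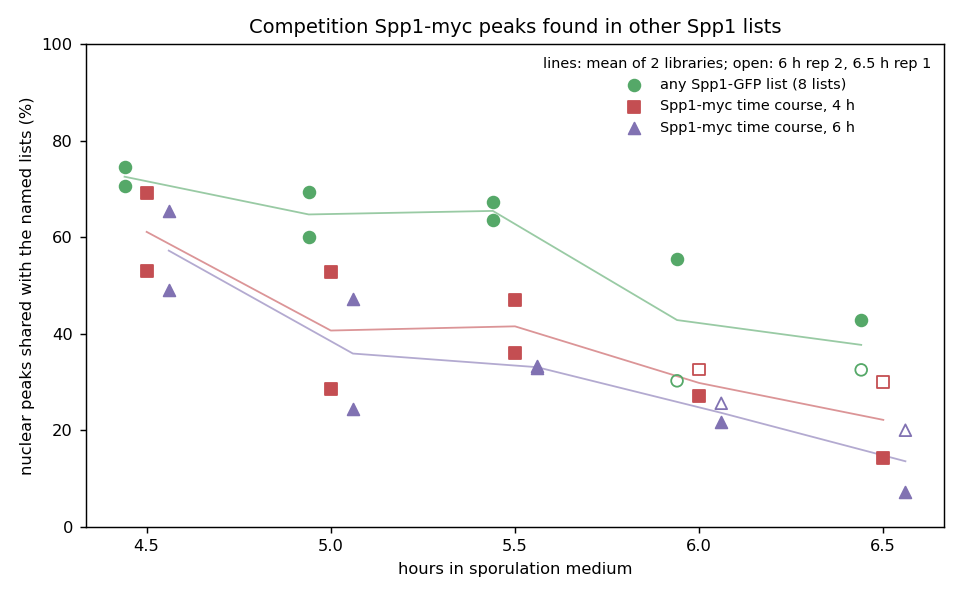
Percent of each library's nuclear peaks that share at least 1 bp with a peak of any of the 8 Spp1-GFP lists (circles), of the Spp1-myc time-course list of 4 h (squares) or of 6 h (triangles), by hours in sporulation medium. Lines join the means of 2 libraries, and open symbols are 6 h replicate 2 and 6.5 h replicate 1. Circles lie at 55.4% or less at 6 and 6.5 h and at 60% or more at 4.5 to 5.5 h.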

How the data were processed

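The labels describe ChIP with an anti-myc antibody from formaldehyde-fixed, sonicated SK1 cells, and 1 peak list per library was used here. BWA, deepTools and sacCer3 are named in the submitters' processing notes, and the peak caller is not given in the sources used here, nor its control or threshold. Each peak has a position in 50 bp steps, a width and a score, which the authors deposited as a fraction from 0.5 to 1 with no normalization stated. Read depth is unknown. Wilson 95% intervals cover counting error over peaks only.

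Peaks were assigned by midpoint to the 6002 nuclear coding genes of the R64 table, with strand taken from the systematic name and chromosome length from the last annotated gene. Between 44 and 61 peaks per library on chrXVII were kept apart. The input and the untagged strain were not analysed here. Tests were two-sided exact permutations over libraries and Fisher's exact test per gene (scipy 1.17.1), adjusted within families, tested on simulated data. The threshold was 0.05. The members and the 18 gene lists were chosen with earlier results of these data known. Named were all kept, lost and gained genes, up to 3 members of each list, and all Set1C and axis genes. The chromosome shares, the sharing with other lists and the merged regions were added after the data were seen, as were other genes named. Replicate numbers were not used to pair the libraries in the main tests. Alternatives were each library left out, higher-scoring peaks, equal list sizes, 5.5 h on either side, other windows, overlap in place of midpoints, longer genes, chrXVII counted, and, added later, omitting 2 libraries or chromosome I.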

Additional observations from a re-analysis of the deposited data

Results flagged for a closer look

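Over 36 groups of values examined, in which chance picks out about 1 in 20 groups, 3 had a library far from the others. The library of 6 h replicate 1 had 74 nuclear peaks, against 43, 40 and 42 in the other late libraries, and its peaks covered 11.7 kb, against 6.64, 6.64 and 5.99 kb. Of its peaks 19 lie on chromosome VIII. The library of 5 h replicate 2 had a median peak width of 101 bp, against 151 bp in the other early libraries.

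Outside the nuclear chromosomes, every list held peaks on a sequence named chrXVII, from 44 in 6 h replicate 2 to 61 in 6.5 h replicate 1, which was 33.7% to 60.4% of all peaks of a library. The last of these peaks ended no further than position 85150, and the last gene of the mitochondrial sequence in the R64 table ends at 85777. Which sequence chrXVII names was not settled from the lists.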

How the results depend on the processing

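Of the 22 results recomputed, those named here and beside the results above changed direction or, for the main comparisons, side of the 0.05 threshold of the permutation test, in percentage points late minus early unless said otherwise. With peaks above their own list's median score, the first gene part gave -17.7 (exact p = 0.0286), the last gene part 6.32, convergent intervals -0.0736, tRNA genes 0.679, the short chromosomes -1.26, and 0 genes were kept. At equal list sizes the last gene part gave 0.549. With 5.5 h counted as late, convergent intervals gave -0.270, tRNA genes 0.0869, chromosome XII 4.16 and sharing with the 6 h time-course list -23.1 (exact p = 0.0286). With 5.5 h counted as early, the short chromosomes gave -0.141, chromosome I -0.952, sharing with the 4 h and 6 h lists -21.8 and -23.5 (exact p = 0.0238 each) and the overlap difference -10.2 (exact p = 0.0238). With a window of 250 bp the promoter share gave 1.82 (exact p = 0.0286). Without the 2 libraries that stand apart, convergent intervals gave -2.27, chromosome ends -3.46, chromosome XII 9.14, and 9 genes were kept. With chromosome I left out, the last gene part gave 3.25, chromosome XII 2.42, sharing with the 6 h list -35.5 (exact p = 0.0286), and 0 genes were kept. The causes were not tested. A further 262 recomputed values kept their direction and side of the threshold, or, for counts, stayed within 1.5 times.

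Leaving out each library in turn gave ranges of -9.44 to -4.62 for the first gene part, -0.599 to 1.73 for convergent intervals, -1.45 to 0.255 for tRNA genes, -5.15 to 6.56 for short chromosomes, -6.79 to 9.23 for chromosome I and -6.09 to 3.59 for chromosome XII. The ranges were -32.3 to -18.8 and -35.3 to -21.7 for sharing with the 4 h and 6 h lists, -16.1 to -3.86 for the overlap difference and 4 to 10 kept genes, 3 to 31 lost genes and 1 to 11 gained genes. The overlap difference passed the threshold without 6 h replicate 1 (exact p = 0.0286), and the first gene part without 4.5 h replicate 2 (exact p = 0.0286). Lost genes numbered 1 with 5.5 h counted as late or chromosome I left out, against 3, and gained genes 0 with 5.5 h on either side, with peaks above the median score or with chromosome I left out, 2 at equal list sizes and 3 with a window of 1000 bp, against 1. Fisher's exact test could not reach an adjusted p under 0.05 with all 8 libraries, so its count of 0 genes says nothing about stability.

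Of 10 pairs of times, 4 had a correlation of replicate deviations over 0.1, and the range was -0.449 to 0.229. The 4 pairs with 6 h were all negative, at -0.449 to -0.113, and the pairs without 6 h all positive, at 0.0930 to 0.229. Replicate 1 of 4.5, 5, 5.5 and 6.5 h and replicate 2 of 6 h had peaks on 10 to 15 chromosomes. The other library of each time had them on 2 to 8. Whether the libraries form 2 series, with the numbers at 6 h the other way round, was not tested. Both libraries that stand apart are among those with 10 to 15 chromosomes, so values given without them cannot be told apart from such a split. With the replicate block, whose smallest p is 0.0556, peak number had an exact p of 0.0556, as had the divergent and Spp1-GFP shares, so the permutation design could not reach the threshold. The centromere measure named among the planned position measures was not run, because the gene table used here holds no centromere positions. Depth is unknown, so absent peaks cannot be told apart from undersampled ones.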
